A study of Rattus norvegicus with 36 samples.

Results

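The 8 genes described here are a set of hepatic glucocorticoid receptor genes: the receptor itself (Nr3c1), 2 genes that set how much corticosteroid reaches it (Hsd11b1 and Serpina6), and 5 genes that the receptor is known to induce (Tat, Sgk1, Tsc22d3, Fkbp5 and Zbtb16). They were chosen by name, and every probe set that the array annotation assigns to one of them was taken. That rule found 9 probe sets among the 31042 tested, for 7 of the 8 genes, with Fkbp5 and Nr3c1 represented by a pair of probe sets each. No probe set was listed to Zbtb16 in the annotation used, so it was not analysed here.

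The samples came from male Harlan Sprague Dawley rats that were 7 weeks old when the study began. Hexachlorocyclopentadienyl-dibromocyclooctane (HCDBCO), a halogenated flame retardant, was given by oral gavage in corn oil at 5 ml/kg body weight on each of 5 days, and the left lobe of the liver was taken 1 day after the last dose. The 6 groups were the corn oil vehicle, then 0.05 mg/kg, 0.54 mg/kg, 5.41 mg/kg, 54.1 mg/kg and 541 mg/kg of HCDBCO, with 6 samples each and 36 in all. RNA from each sample was hybridised to an Affymetrix rat array, and the values are log2 intensities summarised per probe set. All 5 dose comparisons below share the same 6 vehicle samples, so a high or low vehicle value moves all of them in the same direction. Because the labels number samples and not animals, each p-value speaks only to variation among these samples, and the number of arrays limits the precision.

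Corticosterone, the main glucocorticoid of the rat, circulates largely bound to corticosteroid-binding globulin and enters hepatocytes, where 11 beta-hydroxysteroid dehydrogenase regenerates it from its inactive ketone form. The hormone-bound receptor leaves its chaperone complex, moves to the nucleus and binds glucocorticoid response elements, which are paired short inverted repeats near or far from the genes it controls. In liver the receptor is best known for inducing enzymes of amino acid catabolism and gluconeogenesis during fasting and stress, and its output follows the daily rhythm of the hormone.

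The sequences just upstream of the transcription start are shown for 3 target genes, because Tat and Sgk1 varied together between samples of the same dose group and because Tsc22d3 held the single match to the core of the response element. RefSeq promoter windows on the GRCr8 build were matched for 5 of the 7 measured genes, in 10 windows that each cover the 250 bases before a start. Each is written 5′ to 3′ on the strand of its gene, and capitals mark the motifs found, of which the Tat window held none. The Tat window is chr19:54856354-54856603 on the plus strand. The Sgk1 window shown is chr1:24804832-24805081 and the Tsc22d3 window shown is chrX:109065431-109065680, both on the minus strand. Sgk1 and Tsc22d3 each had other windows, which are not shown.
Tat: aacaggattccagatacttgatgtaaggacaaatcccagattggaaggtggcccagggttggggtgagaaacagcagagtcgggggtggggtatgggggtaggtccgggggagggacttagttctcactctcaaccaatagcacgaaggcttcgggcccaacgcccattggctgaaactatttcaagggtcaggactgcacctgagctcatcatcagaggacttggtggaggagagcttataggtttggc
Sgk1: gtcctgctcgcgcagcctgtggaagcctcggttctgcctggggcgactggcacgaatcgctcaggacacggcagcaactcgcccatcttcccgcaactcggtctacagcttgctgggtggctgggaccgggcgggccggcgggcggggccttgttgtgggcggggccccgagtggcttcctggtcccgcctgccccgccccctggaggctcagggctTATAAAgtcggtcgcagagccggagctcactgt
Tsc22d3: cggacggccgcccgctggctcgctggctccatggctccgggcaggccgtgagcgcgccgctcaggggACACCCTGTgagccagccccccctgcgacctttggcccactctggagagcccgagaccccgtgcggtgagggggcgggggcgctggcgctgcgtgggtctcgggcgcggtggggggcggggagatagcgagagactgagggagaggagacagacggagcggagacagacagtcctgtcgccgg
The full element, AGAACA followed by any 3 bases and by TGTTCT, was found in 0 of the 10 windows and in 0.012% of all 33469 RefSeq windows of that length. Its half-site, AGAACA on either strand, was likewise found in 0 of the 10 windows, against 17.5% of all windows. The core ACANNNTGT, which overlaps the full element and reads the same on both strands, occurred in 1 of the 10 windows and in 5.81% of all windows. That match lies in the Tsc22d3 window shown and begins 183 bases before the start. The TATA box letters TATAAA, searched on both strands, were found in 3 of the 10 windows, against 12.9% of all windows. Those windows belong to Sgk1 and Tsc22d3 alone, so counts of windows are not counts of genes. The match in the Sgk1 window shown begins 33 bases before the start. The absence of a match says only that these letters are not in these windows.

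Across the arrays the median log2 value ran from 5.06 to 5.16, and 1 array, replicate 5 of 54.1 mg/kg, stood apart by a higher lower quartile (3.79, against 3.62 to 3.72 in the others) and a lower upper quartile (6.94, against 7.03 to 7.13). In addition, replicate 1 of 0.54 mg/kg stood apart from its group in Fkbp5. The results most moved by either sample are also given without it. The mean log2 level of 7 of 8 hepatocyte markers was 14.00 to 14.07 at 541 mg/kg and 14.04 to 14.12 in vehicle, which matches liver tissue.

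No member passed a false discovery rate of 5% at any dose. In limma's fit over all probe sets with Benjamini-Hochberg adjustment, 0 of the 9 member probe sets were called at 541 mg/kg, where 0.155% of all probe sets were called, and 0 of the 9 at 54.1 mg/kg, where 0.0741% were called. At 0.05, 0.54 and 5.41 mg/kg 0 of 31042 probe sets were called (0%), and 3.02%, 4.18% and 4.83% had an unadjusted p under 0.05 in limma. For the trend over dose order, scored 0 for vehicle to 5 for 541 mg/kg, 0 of the 9 were called against 0.715% of all probe sets, and for any difference among the 6 groups 0 of the 9 against 0.0999%. At an unadjusted p under 0.05, 3 of the 9 passed for any difference (Nr3c1, Serpina6 and Sgk1), beside 5.99% of all probe sets.

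The members had lower means than vehicle at the 2 highest doses, although no single one passed. They were chosen with earlier results of these data known, so the counts below are a description only. In bulk liver, fewer cells of a type and less RNA per cell cannot be told apart. All 9 probe sets had a lower mean at 541 mg/kg than in vehicle, where 46.7% of all probe sets did, and all 9 also at 54.1 mg/kg, where 45.9% of all probe sets did. Their trend over dose order was negative in all 9, beside 46.1% of all probe sets. For Hsd11b1 that trend was flat, at -8.7e-06 (unadjusted p in limma of 0.999), and it turned positive in 16 of 36 fits that each left out 1 sample. In 0 of the 9 did the samples of 541 mg/kg, or those of 54.1 mg/kg, lie wholly apart from the vehicle samples, beside 0.744% and 0.596% of all probe sets. At 0.05, 0.54 and 5.41 mg/kg, 8, 8 and 7 of the 9 had a lower mean, beside 49.5%, 47.8% and 47.9% of all probe sets. At an unadjusted p under 0.05 in limma, 4 of the 9 were lower at 541 mg/kg (Nr3c1, Serpina6, Tat and Sgk1), beside 4.58% of all probe sets (9.07% in either direction). At 54.1 mg/kg 4 of the 9 were lower (Nr3c1, Tat, Sgk1 and Tsc22d3), beside 4.68% (9.2% in either direction), while Nr3c1 alone was so at 0.05, 0.54 and 5.41 mg/kg, beside 1.38%, 1.65% and 2.46%. For the trend 6 of the 9 were lower at that level, beside 6.05% (12% in either direction), and none was higher in any of these comparisons. The median log2 difference over the 9 probe sets was -0.08, -0.11, -0.06, -0.23 and -0.23 from the lowest dose to the highest, where the median over all probe sets lay between 0.00 and 0.01. At 0.54 mg/kg that median was -0.15 without replicate 1 of the dose. Without replicate 5 of 54.1 mg/kg, the array that stood apart, the difference at 54.1 mg/kg was -1.05 for Sgk1, -0.51 for Tat, -0.35 for Tsc22d3 and -0.23 for the brighter Nr3c1 probe set, while the brighter Fkbp5 probe set turned to 0.02. The count of 9 lower means rests on single samples for the members nearest 0: the brighter Fkbp5 probe set also turned to 0.07 at 54.1 mg/kg and 0.01 at 541 mg/kg without vehicle replicate 5, and Hsd11b1 at 541 mg/kg turned above 0 when some single samples were left out.

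**Figure D1:**
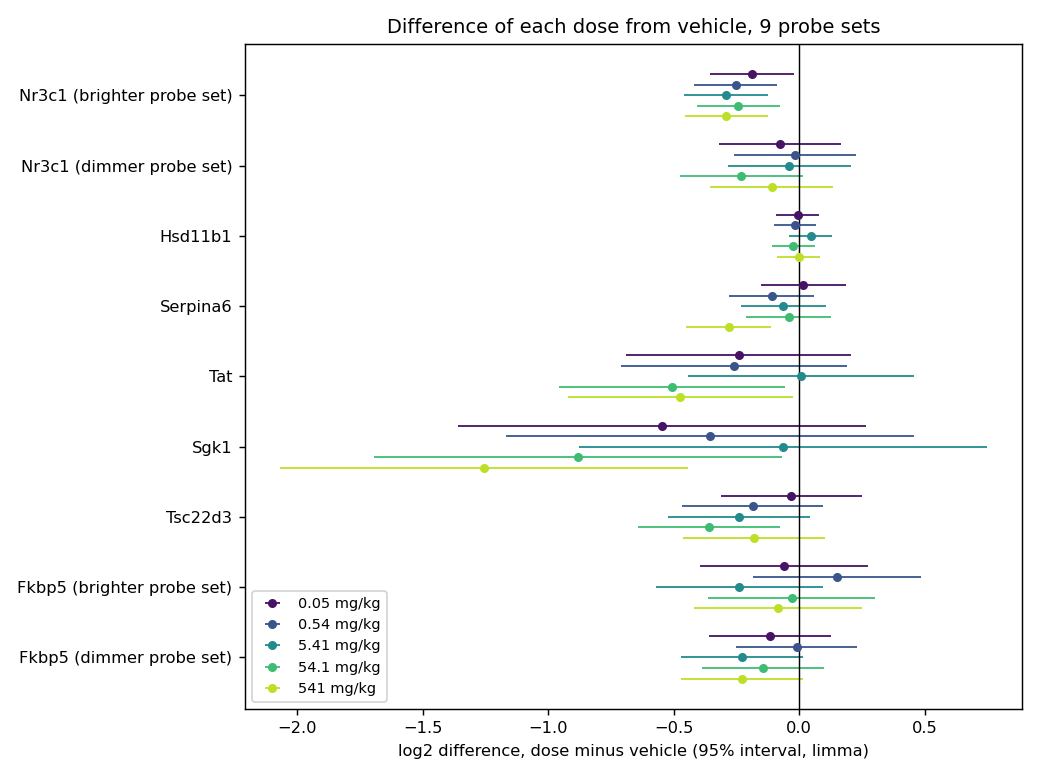
The points are log2 differences, dose minus vehicle, of each member probe set, with bars for the 95% interval from limma. At 541 and 54.1 mg/kg all 9 points lie at or below 0, and Sgk1 has both the most negative point (-1.25) and the widest interval.

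Nr3c1 encodes the glucocorticoid receptor, a nuclear receptor that acts as a hormone-dependent transcription factor. Its brighter probe set (1368221_at) ran from 8.95 to 9.17 with a median of 9.02 at 541 mg/kg, against 9.07 to 9.49 with a median of 9.41 in vehicle. In vehicle, 4 of the 6 samples lay above every 541 mg/kg sample, while the other 2 fell within the 541 mg/kg range. Group means were 9.33 ± 0.20 in vehicle and then 9.14 ± 0.16, 9.07 ± 0.17, 9.04 ± 0.14, 9.08 ± 0.07 and 9.04 ± 0.08 from 0.05 to 541 mg/kg (SD, n = 6 each). In every dose group all 6 samples lay below the vehicle mean, and the 5 dose groups overlapped one another.

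In limma the log2 difference of this probe set from vehicle was -0.19, -0.25, -0.29, -0.24 and -0.29 from 0.05 to 541 mg/kg, with a standard error of 0.08. At 541 mg/kg the 95% interval was -0.46 to -0.12 (0.818 times the vehicle level) and the adjusted p in limma was 0.176. The adjusted p in limma for the trend was 0.103, the lowest of any member in any comparison. The 3 lowest doses had unadjusted p-values of 0.0270, 0.00393 and 0.00112 in limma, but their adjusted p-values were at least 0.977, where no probe set of the array was called. The dimmer probe set (1368222_at) had smaller differences of -0.08, -0.02, -0.04, -0.23 and -0.11 from 0.05 to 541 mg/kg, with a 95% interval at 541 mg/kg of -0.35 to 0.13 and adjusted p-values in limma of at least 0.575. The pair did not follow each other closely, with r = 0.44 across the 36 samples, so the 2 probe sets differ on the size of the Nr3c1 difference. The dimmer one averaged 4.34, below the lowest array median of 5.06, and the brighter one 9.12. Whether that low level made its differences smaller was not tested.

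**Figure D2:**
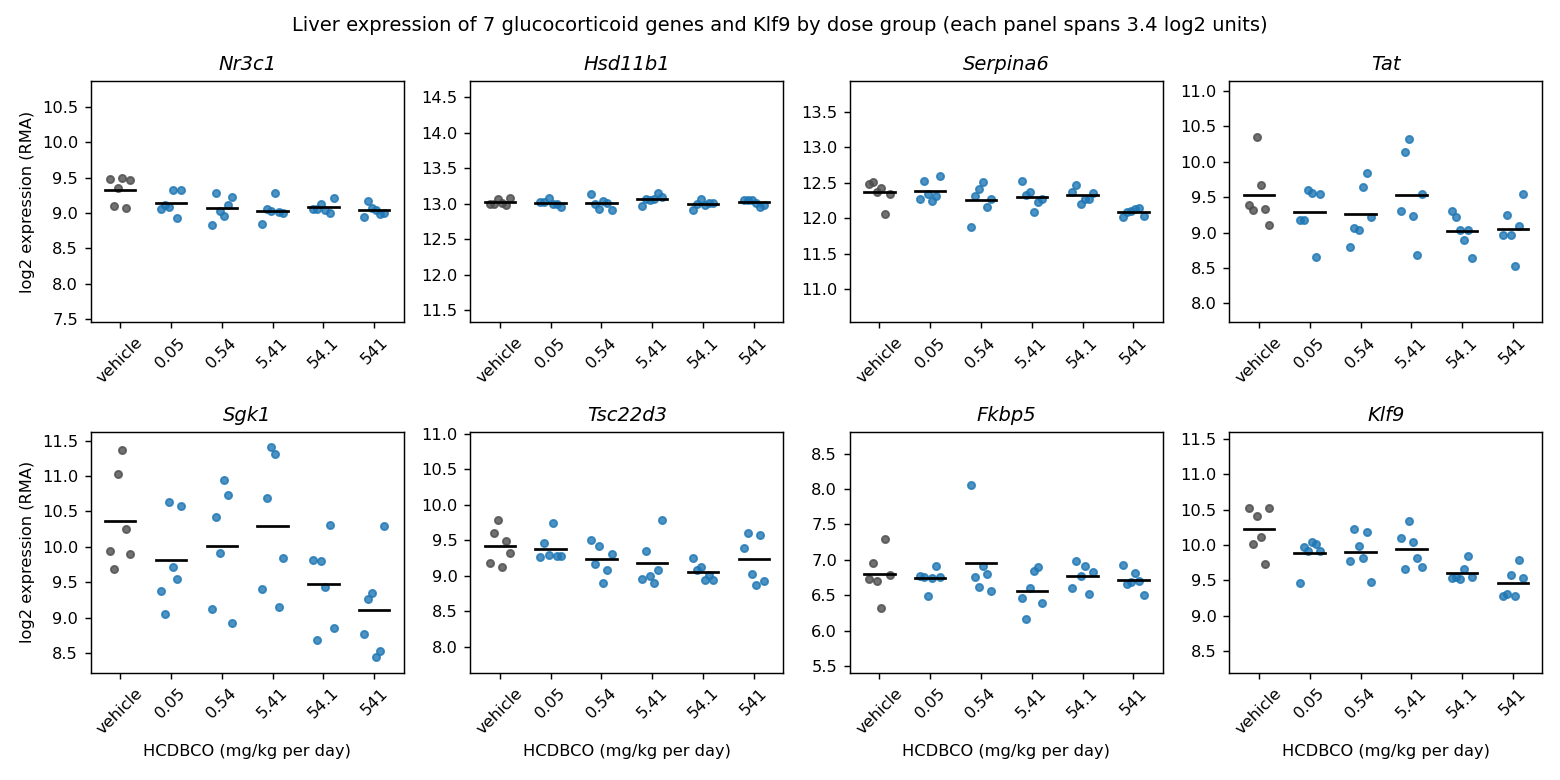
Each panel shows the log2 value of the brightest probe set of a member gene, or of Klf9, by dose group in mg/kg, with a point per sample and a bar at the group mean, and all panels span the same log2 range. Sgk1 and Tat spread widely within each group, Hsd11b1 stays between 12.91 and 13.15 in all 36 samples, and the 541 mg/kg samples of Serpina6 lie close together.

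Serpina6 encodes corticosteroid-binding globulin, which the liver secretes and which carries most of the corticosterone in blood. Its probe set (1373686_at) ran from 12.01 to 12.14 with a median of 12.09 at 541 mg/kg, against 12.05 to 12.51 with a median of 12.40 in vehicle. Of the 6 vehicle samples, 5 lay above every 541 mg/kg sample, and vehicle replicate 5, at 12.05, was within their range. Means were 12.08 ± 0.05 at 541 mg/kg and 12.36 ± 0.17 in vehicle (SD, n = 6 each). The log2 difference was -0.28 (SE 0.08, 95% interval -0.45 to -0.11), or 0.823 times the vehicle level, with an adjusted p in limma of 0.192. From 0.05 to 54.1 mg/kg the differences were 0.02, -0.11, -0.06 and -0.04, each with an interval that includes 0. At those 4 doses the samples overlapped those of vehicle, and the adjusted p of the trend in limma was 0.149.

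Hsd11b1 encodes the dehydrogenase that regenerates active corticosterone inside hepatocytes, and it was the steadiest member. All 36 samples lay between 12.91 and 13.15, and the SD within groups (0.0544) was lower than that of all but 0.335% of the probe sets. Its mean level of 13.02 was at percentile 99.68 of all probe sets. Whether the array reads changes in full at so high a level was not tested. The log2 differences from 0.05 to 541 mg/kg were -0.01, -0.02, 0.05, -0.02 and -0.00. At 541 mg/kg the 95% interval was -0.09 to 0.08 and the adjusted p in limma was 0.993. At 5.41 mg/kg, where the mean was highest, the 95% interval was -0.04 to 0.13.

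Among the targets, Sgk1 had the largest differences at 54.1 and 541 mg/kg. It encodes serum- and glucocorticoid-regulated kinase 1, a kinase of the insulin and mineralocorticoid pathways that controls ion transport and cell survival. Its probe set (1367802_at) ran from 8.45 to 10.29 with a median of 9.02 at 541 mg/kg, against 9.69 to 11.36 with a median of 10.10 in vehicle. At 541 mg/kg all 6 samples lay below the vehicle mean and 5 below the lowest vehicle sample; the sample that did not, replicate 6, was at 10.29. At 54.1 mg/kg values ran from 8.68 to 10.31 with a median of 9.61, and 3 of the 6 lay below the lowest vehicle sample.

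Group means of Sgk1 were 10.36 ± 0.68 in vehicle and then 9.81 ± 0.65, 10.01 ± 0.84, 10.30 ± 0.97, 9.48 ± 0.62 and 9.11 ± 0.69 from 0.05 to 541 mg/kg (SD, n = 6 each). The means did not follow the dose in order, and no pair of neighbours in their order differed by more than the larger SD of the pair. The log2 difference was -1.25 at 541 mg/kg (SE 0.40, 95% interval -2.07 to -0.44), which is 0.419 times the vehicle level (0.239 to 0.736). The adjusted p in limma was 0.229 at 541 mg/kg. It was -0.88 at 54.1 mg/kg (95% interval -1.70 to -0.07, adjusted p in limma of 0.492), and -0.55, -0.35 and -0.06 at 0.05, 0.54 and 5.41 mg/kg. Without vehicle replicate 4, the highest vehicle sample, the difference was -0.35, -0.15, 0.14, -0.68 and -1.06 from 0.05 to 541 mg/kg. Leaving out any 1 sample gave from -1.49 (without replicate 6 of the dose) to -1.06 at 541 mg/kg. At 54.1 mg/kg it gave from -1.05 (without replicate 5 of the dose) to -0.68. The within-group SD of 0.752 was higher than that of 99.79% of the probe sets.

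Tat encodes tyrosine aminotransferase, the first enzyme of tyrosine breakdown and a classic glucocorticoid-induced gene of hepatocytes. Its probe set (1369790_at) ran from 8.52 to 9.54 with a median of 9.03 at 541 mg/kg, against 9.11 to 10.35 with a median of 9.36 in vehicle. At 54.1 mg/kg it ran from 8.65 to 9.30, also with a median of 9.03. In both high dose groups 4 of the 6 samples lay below the lowest vehicle sample, and the ranges overlapped. The vehicle mean rests in part on replicate 3, at 10.35, with the other 5 vehicle samples between 9.11 and 9.67.

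The log2 differences of Tat were -0.24, -0.26, 0.01, -0.51 and -0.47 from 0.05 to 541 mg/kg. At 54.1 mg/kg the 95% interval was -0.96 to -0.06 (adjusted p in limma of 0.470) and at 541 mg/kg it was -0.92 to -0.02 (adjusted p of 0.510). The difference at 541 mg/kg is 0.720 times the vehicle level. Without vehicle replicate 3 the differences of Tat were -0.08 at 0.05 mg/kg, -0.10 at 0.54 mg/kg, -0.34 at 54.1 mg/kg and -0.31 at 541 mg/kg. At 5.41 mg/kg the mean was 9.53 ± 0.61 and in vehicle it was 9.53 ± 0.44 (SD, n = 6 each). The within-group SD of Tat, 0.413, was higher than that of 98.63% of the probe sets.

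Tsc22d3 encodes GILZ, a glucocorticoid-induced leucine zipper protein that represses inflammatory transcription factors. Its probe set (1367771_at) ran from 8.93 to 9.24 with a median of 9.04 at 54.1 mg/kg, against 9.12 to 9.79 with a median of 9.40 in vehicle. All 6 samples at 54.1 mg/kg lay below the vehicle mean, and 4 lay below the lowest vehicle sample. The log2 difference there was -0.36 (95% interval -0.64 to -0.08, adjusted p in limma of 0.410). At 541 mg/kg the samples ran wider, from 8.87 to 9.61, and the difference was -0.18 (95% interval -0.46 to 0.10, adjusted p in limma of 0.748). That difference was -0.10 without vehicle replicate 3, -0.11 without replicate 4 of the dose and -0.12 without its replicate 6. It was larger in size without vehicle replicate 4 (-0.24) or replicate 2 of the dose (-0.25). The other doses were at -0.03, -0.19 and -0.24 from 0.05 to 5.41 mg/kg.

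Fkbp5 encodes FKBP51, a co-chaperone that binds the receptor complex and lowers its affinity for hormone, so that its induction limits the receptor. Its brighter probe set (1388901_at) ran from 6.50 to 6.93 with a median of 6.70 at 541 mg/kg, against 6.32 to 7.29 with a median of 6.76 in vehicle. The 541 mg/kg samples lay inside the vehicle range. Log2 differences were -0.06, 0.15, -0.24, -0.03 and -0.08 from 0.05 to 541 mg/kg, and at 541 mg/kg the 95% interval was -0.42 to 0.25 (adjusted p in limma of 0.924). The dimmer probe set (1380611_at) gave -0.12, -0.01, -0.23, -0.15 and -0.23, with r = 0.82 between the pair across the 36 samples, and none of those differences passed the adjusted threshold either.

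The positive value at 0.54 mg/kg came from replicate 1 of that group, which had an Fkbp5 level of 8.05 where the other 5 samples ran from 6.56 to 6.91. Its dimmer probe set was also high at 7.05, against 5.83 to 6.43 in the other 5. This sample stood at the edge of its group in most of the other members too. It was the lowest of its group for Tat (8.79), the brighter Nr3c1 probe set (8.84), the dimmer one (4.25) and Serpina6 (11.88), and the highest for Tsc22d3 (9.51) and Hsd11b1 (13.14). Without it the Fkbp5 difference at 0.54 mg/kg was -0.07 for the brighter probe set and -0.15 for the dimmer one. At the same dose the difference was then -0.03 for Serpina6, -0.17 for Tat and -0.18 for Sgk1, and the dimmer Nr3c1 probe set turned to 0.01.

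**Figure D3:**
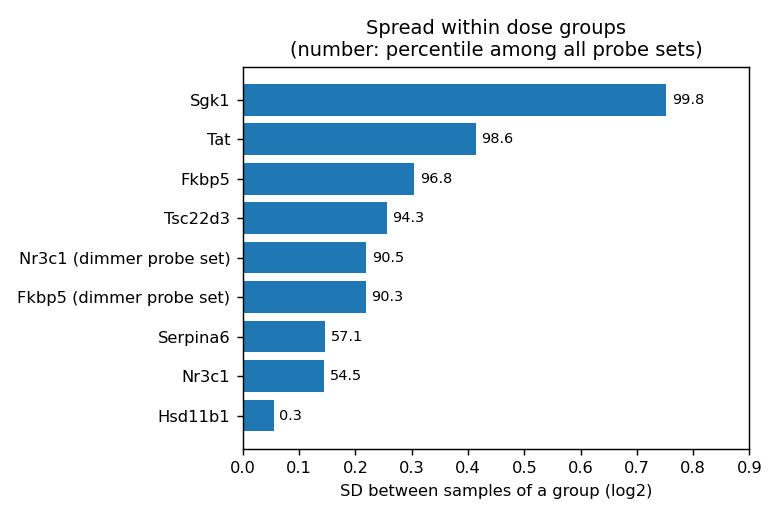
Bars give the SD within dose groups of each member probe set, in log2 units, and the number beside a bar is its percentile among all 31042 probe sets. Sgk1 (0.752) has the longest bar, then Tat (0.413), and Hsd11b1 (0.0544) the shortest.

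Tat and Sgk1 varied together between samples of the same dose group. Over the 36 samples, after removing each group's mean, their deviations correlated with r = 0.66 (permutation p = 0.00023, adjusted over 21 pairs 0.00483) and a Spearman rho of 0.61 (permutation p = 0.00074, adjusted 0.0155). Without the 2 samples farthest from the median for Tat, vehicle replicate 3 and replicate 3 of 5.41 mg/kg, r was 0.62. Within the 2 highest doses r was 0.60 (adjusted permutation p = 0.404, n = 12), and 0.24 without the 2 farthest samples, while within vehicle and the 3 lowest doses it was 0.68 (adjusted permutation p = 0.0315, n = 24). Spearman's rho did not pass in either subset, at 0.46 (adjusted permutation p = 0.619) in the 2 highest doses and 0.58 (adjusted permutation p = 0.212) in vehicle and the 3 lowest doses. The difference between the subsets was not tested. It was the only one of the 21 pairs that passed the adjusted threshold for Pearson's r.

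**Figure D4:**
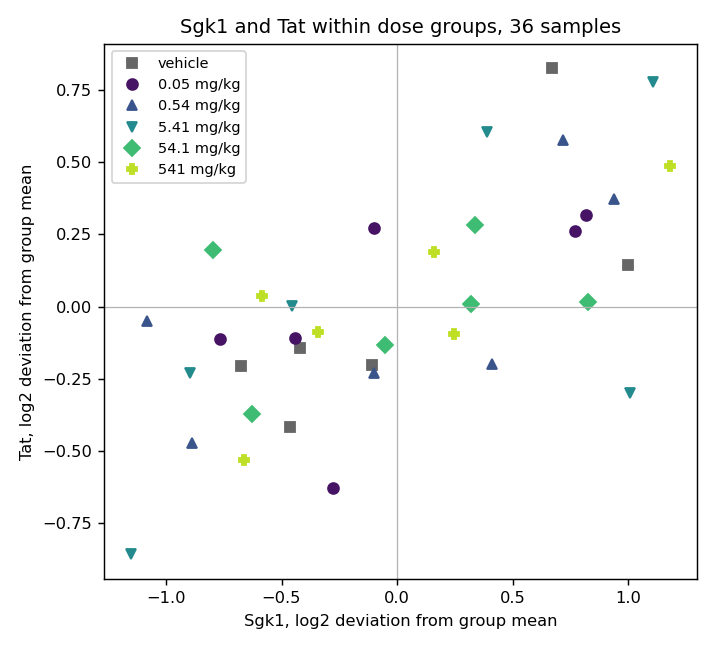
Each point is a sample, with its deviation from the mean of its dose group for Sgk1 on the x axis and for Tat on the y axis, both in log2 units, coloured by dose. The 36 samples run from the lower left to the upper right, with r = 0.66.

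A second pair passed for the rank correlation alone. Tat and Fkbp5 deviated in opposite directions, with a Spearman rho of -0.50 (permutation p = 0.00451, adjusted 0.0474) and r = -0.46 (permutation p = 0.0104, adjusted 0.109). That call was lost without replicate 1 of 0.54 mg/kg, where rho was -0.40 and its adjusted permutation p 0.351. It was also lost with all 36 samples when arrays were centred on their median (rho -0.47, adjusted permutation p = 0.0811). Fkbp5 and Serpina6 had r = -0.54 (adjusted permutation p = 0.116) over all 36 samples and -0.28 without replicate 1 of 0.54 mg/kg.

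The genes whose levels followed each member most closely across the 36 samples are given as a description, by Pearson's r with no test. For Sgk1 they were Brd1 (0.86), Phf23 (0.85) and Srf (0.85). For Tat they were Slc25a25 (0.77), G0s2 (0.74) and Srf (0.73). For Tsc22d3 they were Il6r (0.78), Klf13 (0.74) and Usp2 (0.71). For Fkbp5 they were Edem1 (0.76), Smap1 (0.71) and Rhobtb3 (0.66). For the brighter Nr3c1 probe set they were Tmem144 (0.77), Rnf144a (0.75) and Tasor (0.71). For Serpina6 they were Spp2 (0.69), Cavin2 (0.63) and C4bpb (0.63). For Hsd11b1 they were Marveld1 (0.62), Aqp3 (0.58) and Tmem176a (0.57). The samples share array, tissue and group, and each r was the highest among all genes with a symbol, so its size is partly a result of that search.

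Other liver genes known to respond to glucocorticoids were read from a list of 32, of which 31 had a probe set. The list was chosen with earlier results of these data known, so its counts are a description only. At 541 mg/kg 1 of the 31 fell past the false discovery rate and none rose. Of all 14217 genes with a symbol, 7 fell and 27 rose. At an unadjusted p under 0.05 in limma, 5 of the 31 were lower and 0 higher at 541 mg/kg (16.1% lower, beside 5.12%). At that dose 24 of the 31 had a lower mean (77.4%, beside 46.6% of all genes with a symbol), with a median log2 difference of -0.14. At 54.1 mg/kg 0 of the 31 passed in limma, 8 were lower and 0 higher at an unadjusted p under 0.05 (25.8% lower, beside 5.09% of all genes with a symbol), and again 24 had a lower mean, beside 46.4%. Over the dose order 2 of the 31 fell past that rate, Klf9 and Errfi1, beside 67 of all 14217 genes with a symbol. The gene that fell was Klf9, a zinc-finger transcription factor, whose brightest probe set fell by 0.76 on the log2 scale at 541 mg/kg (SE 0.13, adjusted p in limma of 0.00356). Its middle probe set (1387882_at) was at -0.74 there, with all 6 samples below the lowest vehicle sample (adjusted p in limma of 0.0636). Its dimmest (1390076_at), with a mean of 3.89 at percentile 29.37 of all probe sets, was at -0.15. Per1, a clock repressor that glucocorticoids induce, was at -0.01 (adjusted p in limma of 0.985).

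Errfi1, an inhibitor of epidermal growth factor receptor signalling, was at -0.82 at 54.1 mg/kg and -0.80 at 541 mg/kg (adjusted p in limma of 0.108 and 0.0931). It fell over the dose order (adjusted p of the trend in limma of 0.0312), a call lost when 1 of 7 samples was left out: vehicle replicate 3, 4 or 6, 0.05 mg/kg replicate 6, or 541 mg/kg replicate 1, 2 or 4. Glul, glutamine synthetase, was at -0.31 at 541 mg/kg (adjusted p in limma of 0.233), and its other probe sets were at -0.34 and -0.50. Got1, cytosolic aspartate aminotransferase, was at -0.29 (adjusted p in limma of 0.355). Cdkn1a, the cell cycle inhibitor p21, was at -0.40 at 54.1 mg/kg (adjusted p in limma of 0.231) but at -0.07 at 541 mg/kg (0.917). Its dimmer probe set was at -0.45 at 54.1 mg/kg and -0.35 at 541 mg/kg.

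**Figure D5:**
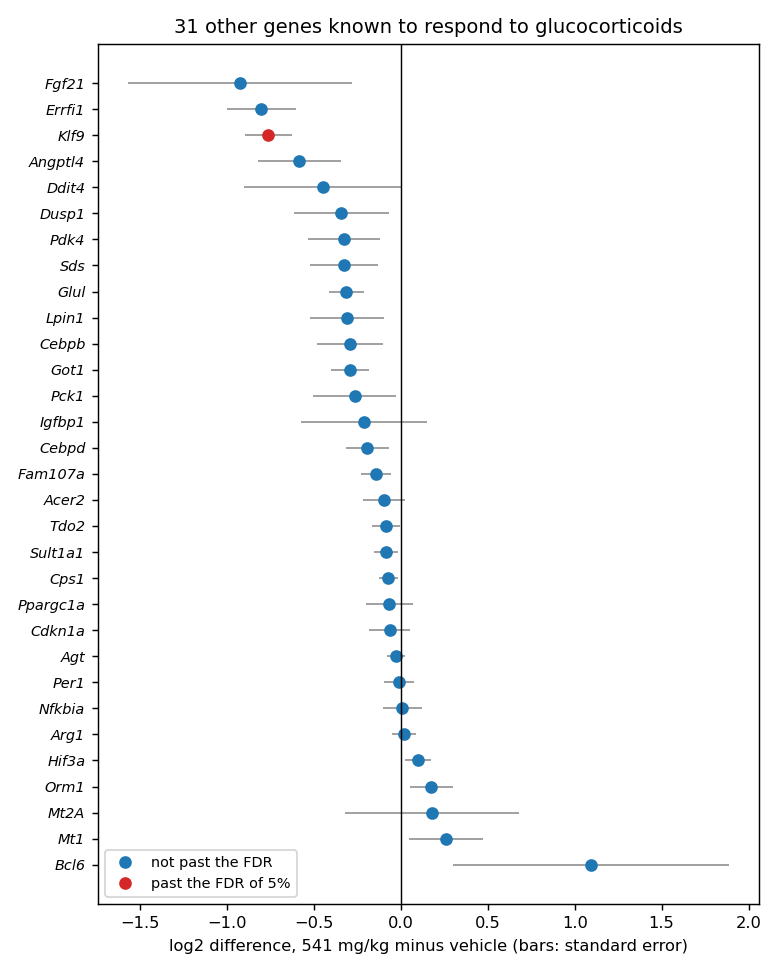
The log2 difference at 541 mg/kg from vehicle, with its standard error, is drawn for the 31 measured genes of the receptor target list, in order of size. Klf9 fell past the false discovery rate, and 24 of the 31 points lie below 0.

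Of the 21 chaperones, co-chaperones and coregulators of the receptor, 18 were measured, and 0 passed at 541 or 54.1 mg/kg in limma, with 0 at 541 mg/kg and 2 at 54.1 mg/kg lower at an unadjusted p under 0.05, beside 5.12% and 5.09% of all genes with a symbol. At 541 mg/kg Med1, a Mediator subunit, was at -0.12 (adjusted p in limma of 0.588), and its other probe sets were at -0.12 and -0.18. The coactivator Ncoa3 was at -0.11 (0.660) by its brighter probe set and at 0.13 (0.692) by its dimmer one. The coactivator Ncoa2 was at 0.13 (0.691) and the cochaperone Ptges3, p23, at 0.07 (0.682), both at 541 mg/kg. Dnajb1, a heat-shock cochaperone, was at -0.36 at 54.1 mg/kg (adjusted p in limma of 0.333) and -0.11 at 541 mg/kg (0.843). Its dimmer probe set was at -0.26 at 54.1 mg/kg and -0.05 at 541 mg/kg.

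The genes listed for corticosteroid clearance and handling mostly had higher means. This list too was chosen with earlier results of these data known, so its counts are a description only. Of 15 listed, 11 were measured, and 10 had a higher mean at 541 mg/kg (beside 53.4% of all genes with a symbol), with a median log2 difference of 0.18. At an unadjusted p under 0.05 in limma 7 of the 11 were higher, beside 5.06% of all genes with a symbol. Cyp3a23-3a1, a cytochrome P450 that hydroxylates steroids, was the one that rose past the false discovery rate, by 0.67 on the log2 scale at 541 mg/kg (SE 0.11, adjusted p in limma of 0.00102). Of all 14217 genes with a symbol, 27 rose past that rate at 541 mg/kg. Abcb1a, the P-glycoprotein pump that exports steroids, was at 0.44 at 541 mg/kg (adjusted p in limma of 0.128) and rose over the dose order (adjusted p of the trend 0.0268), a call lost without vehicle replicate 5, 541 mg/kg replicate 1 or 541 mg/kg replicate 5. Its dimmer probe set was at 0.30 at 541 mg/kg and did not pass for the trend (adjusted p in limma of 0.0972). Cyp3a2 was at 0.13 (adjusted p in limma of 0.288), Cyp3a18 at 0.23 (0.293), and Akr1d1, the 5 beta-reductase of steroids, at 0.18 at 54.1 mg/kg (adjusted p in limma of 0.350). The Cyp3a genes are close in sequence, so their probe sets may read more than 1 of them.

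The 5 of 6 measured sinusoidal endothelium markers averaged 8.01 to 8.24 at 541 mg/kg and 8.12 to 8.54 in vehicle. All 5 had a lower mean at 541 mg/kg (Stab2 -0.27, Stab1 -0.30, Kdr -0.18, Pecam1 -0.13, Lyve1 -0.04). None passed the false discovery rate, but 3 of the 5 were lower at an unadjusted p under 0.05 in limma (60%, beside 5.12% of all genes with a symbol). The part of these markers in the lower members was not tested. T cell markers, 6 of 6 measured, averaged 4.77 to 5.00 at 541 mg/kg and 4.77 to 4.97 in vehicle. Stellate cell markers, 5 of 6 measured, averaged 6.99 to 7.95 at 541 mg/kg and 7.36 to 7.86 in vehicle. At 541 mg/kg 4 of the 5 had a lower mean, none past the false discovery rate and 1 at an unadjusted p under 0.05 in limma (20%, beside 5.12%). Their part in the lower members was not tested. In all 11 marker lists the range at 541 mg/kg overlapped that in vehicle. At 0.54 mg/kg the bile duct markers, 4 of 5 measured, averaged up to 7.71 in a sample. The next highest group maximum was 6.31, at 0.05 mg/kg. The part of these markers in the members at 0.54 mg/kg was not tested. The 1 marker past the false discovery rate, which is named because of its values, was the pancreatic lipase gene Pnlip, which rose over the dose order (adjusted p in limma of 0.0254) and was at 0.33 at 541 mg/kg, with means of 4.33 at 541 mg/kg and 4.01 in vehicle. That call was lost without vehicle replicate 3, 541 mg/kg replicate 4 or 541 mg/kg replicate 5. Over the dose order 77 of all 14217 genes with a symbol rose past that rate.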

How the data were processed

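Liver RNA from 36 rat samples was hybridised to Affymetrix rat arrays, 1 per sample. The deposited table holds the authors' log2 intensities per probe set, made with RMA in the affy package per the submitters' processing notes; versions are not given in the sources used here. RMA corrects background, quantile-normalises and summarises probes jointly over arrays, which removes shifts shared by a whole array. The base of the logarithm is not stated and was taken as 2, from the range of the values (1.94 to 14.7). The depth and detection of each probe set are unknown.

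Groups came from the sample labels. The 57 control probe sets were left out, and 31042 were tested under R 4.3.3 with version 3.58.1 of limma (6 group means, linear fits with empirical Bayes moderation, two-sided, Benjamini-Hochberg over all tested probe sets, threshold 0.05); the design text names another R package, which was not used here. Intervals are 95%. Gene names came from the platform annotation: 20826 probe sets had 1 symbol, 436 several and 9780 none. A gene with several probe sets was read by its brightest, meaning the highest mean over all samples, and every probe set of the members was also given. Correlations used 100000 permutations within groups. The fit was tested on simulated data.

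Text names every member probe set, Klf9 and Per1, and from each of the 3 pathway lists the genes past the threshold plus the 4 with the smallest p at 541 mg/kg and the 2 at 54.1 mg/kg, and the 3 genes most like each member. The members and lists were chosen with earlier results of these data known. Alternatives were a brightness filter, array weights, centring on the array median, only the 2 groups compared, the mean of a gene's probe sets, a replicate block and leaving out each sample. Deviations of same-numbered vehicle and dose samples correlated weakly (from -0.21 to 0.15). Over all groups the mean correlation was 0.014 for same numbers and -0.0028 for different numbers. Low correlations cannot show what the numbers stand for, and the samples were treated as unpaired.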

Additional observations from a re-analysis of the deposited data

Results flagged for a closer look

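In 4 of the 78 groups of 6 samples examined (every probe set of the members, Klf9 and Per1 in each dose group), 1 sample lay far from the other 5 by Dixon's criterion for 6 values; chance alone gives about 1 in 20 groups. Fkbp5 (1388901_at) was 8.05 in replicate 1 of 0.54 mg/kg, with the nearest sample of the group at 6.91. Klf9 (1370209_at) was 9.46 in replicate 1 of 0.05 mg/kg, with the nearest at 9.91. The dimmest Klf9 probe set (1390076_at) was 3.48 in replicate 4 of 54.1 mg/kg, with the nearest at 3.83. Per1 (1374855_at) was 6.05 in replicate 6 of 5.41 mg/kg, with the nearest at 5.59.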

How the results depend on the processing

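No member probe set was called under any alternative run in limma; the lowest adjusted p was 0.0551, for the trend of the brighter Nr3c1 probe set without vehicle replicate 2, and 0.0585 for the same trend among probe sets brighter than the median. The calls over all probe sets (23 at 54.1 mg/kg, 48 at 541 mg/kg, 222 for the trend, 31 for any difference) depended on the setting. They were 37, 83 and 376 for 54.1 mg/kg, 541 mg/kg and the trend with the brightness filter, 64, 80, 376 and, for any difference, 53 with array weights, and 43 at 54.1 mg/kg and 31 at 541 mg/kg with only the 2 groups compared. Leaving out 1 sample gave 5 to 36 calls at 54.1 mg/kg (lowest without vehicle replicate 1), 18 to 63 at 541 mg/kg (lowest without replicate 4 of that dose), 85 to 272 for the trend and 17 to 41 for any difference. The split at 54.1 mg/kg, 13 higher and 10 lower, was 7 and 10 after centring, 14 and 23 with the brightness filter and 11 and 32 with only the 2 groups compared. With the replicate number as a block, counts were 28, 44, 212 and 28, and no call of a member was gained. Within the 2 highest doses 0 pairs of members passed for Pearson's r, beside 1 over all samples.

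Members near 0 changed sign: Tat at 5.41 mg/kg was -0.000898 after centring; with array weights Sgk1 at 5.41 mg/kg was 0.11, Hsd11b1 at 541 mg/kg 0.0050 and its trend 0.0013. Leaving out 1 sample, the brighter Fkbp5 probe set ran from -0.156 to 0.0381 at 0.05 mg/kg, -0.0694 to 0.249 at 0.54, -0.127 to 0.0675 at 54.1 and -0.180 to 0.0145 at 541, and the dimmer from -0.154 to 0.0895 at 0.54. Hsd11b1 ran from -0.0198 to 0.00616 at 0.05, -0.0423 to 0.00247 at 0.54, -0.0112 to 0.0106 at 541, and -0.00132 to 0.0018 for the trend. The dimmer Nr3c1 ran from -0.0802 to 0.0307 at 0.54 and -0.121 to 0.0512 at 5.41, Serpina6 from -0.0451 to 0.0468 at 0.05, Sgk1 from -0.29 to 0.17 at 5.41, Tat from -0.15 to 0.18 at 5.41, and Tsc22d3 from -0.103 to 0.0437 at 0.05. Klf9 at 54.1 mg/kg passed with the brightness filter and with array weights (adjusted p in limma of 0.0406 and 0.0296). Errfi1 passed at 54.1 mg/kg with array weights (0.0482) and at 541 mg/kg with only the 2 groups compared (0.0235). The cause of these changes was not tested.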
